A study of Mus musculus with 19 samples.

Results

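SPEN chromatin immunoprecipitation followed by sequencing (ChIP-seq) in heat-shocked mouse testicular cells was set against the 2 background libraries of the same cells. The set held 10 of the 19 libraries of the study, namely 8 heat-shocked SPEN libraries, 1 library made with non-immune rabbit IgG and 1 library of input DNA. Peaks on chromosomes 1 to 19 of these 10 lists were merged wherever they shared at least 1 bp, and no peak was removed. This gave 5151 loci. Of these, 181 were held by 4 or more of the 8 heat-shocked lists and by neither background list (3.51% of all loci), and they are called recurrent heat-shock loci here. Another 2635 were held by 1 to 3 heat-shocked lists and no background list, 1756 were shared between a heat-shocked and a background list, and 579 were held by IgG or input and by none of the heat-shocked lists (11.2% of all loci). Membership in the lists defined these classes, so the class sizes are descriptions and not test results.

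The cells came from testes of adult male FVB/N mice (10 to 16 weeks) after collagenase digestion and washing of the tubules, and were kept in suspension at 32 °C, the temperature of the testis in the animal. Heat shock was 38 °C or 43 °C. At each temperature 1 library was made after 15 min of heat, 1 after 30 min, and 1 each after 30 min of heat with 2 h or 4 h of recovery at 32 °C. All 8 used the same polyclonal rabbit antibody against an internal stretch of SPEN (Abcam). The IgG library pooled precipitations with rabbit serum IgG from all treatments, and the input library was an equal mixture of the inputs of all treatments, so neither background belongs to 1 state of the cells. Each library combined several precipitations before sequencing and each condition had 1 library. There is therefore no replicate error for a single condition. The 4 lists at 38 °C and the 4 at 43 °C can be set against each other, though the 4 are different time states and not replicates. The cells were a mixture, and peak lists hold no expression from which the cell types could be checked.

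SPEN is a very large nuclear protein that binds RNA through a set of RNA recognition motifs and recruits the NCoR/SMRT-HDAC3 corepressor complex through its SPOC domain. It represses Notch target genes when bound to the DNA-binding factor RBPJ, and it is required for gene silencing by Xist RNA on the X chromosome. In mouse cells it has also been described to bind RNA of endogenous retroviruses and to repress them. The testis normally works below body temperature, and heat activates heat shock factors that bind inverted repeats of a short element in DNA. IgG precipitates show what sticks without a specific antibody, and input DNA shows where reads pile up without any precipitation, for example where many genomic copies of a repeat collapse onto few copies in the assembly.

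Of the 181 recurrent loci, 3 overlapped the promoter window of a gene in RefSeq (250 bases before to 50 after the gene's start, build GRCm38.p6), which is 1.66% (exact Clopper-Pearson 95% interval 0.343 to 4.77). The share was 2.07% (1.08 to 3.59) of loci of background only and 1.31% (0.832 to 1.96) of shared loci. Intervals here cover counting error only. The window of Gm40369 is shown because its locus, chr6:47652660-47653276, was held by all 8 heat-shocked lists. The window of Gm40468 is shown because it lay wholly inside a recurrent locus, chr8:20260664-20262217, that was held by 4 of the 8 lists. Both are predicted genes with no role given in the files. Gm40369 lies beside Rn4.5s, which encodes the 4.5S RNA, on the plus strand at chr6:47652651-47652950, and Gm40468 is a long non-coding RNA gene on the minus strand at chr8:20261150-20261449. Capitals mark the bases inside the recurrent locus, 5′ to 3′.
Gm40369: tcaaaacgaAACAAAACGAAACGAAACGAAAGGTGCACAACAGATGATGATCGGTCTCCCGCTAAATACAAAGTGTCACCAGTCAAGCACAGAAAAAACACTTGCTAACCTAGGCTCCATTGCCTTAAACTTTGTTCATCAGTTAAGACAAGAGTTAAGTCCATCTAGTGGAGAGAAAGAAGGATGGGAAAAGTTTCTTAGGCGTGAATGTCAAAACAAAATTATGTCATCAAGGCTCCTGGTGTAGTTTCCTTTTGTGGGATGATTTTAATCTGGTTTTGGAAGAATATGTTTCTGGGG
Gm40468: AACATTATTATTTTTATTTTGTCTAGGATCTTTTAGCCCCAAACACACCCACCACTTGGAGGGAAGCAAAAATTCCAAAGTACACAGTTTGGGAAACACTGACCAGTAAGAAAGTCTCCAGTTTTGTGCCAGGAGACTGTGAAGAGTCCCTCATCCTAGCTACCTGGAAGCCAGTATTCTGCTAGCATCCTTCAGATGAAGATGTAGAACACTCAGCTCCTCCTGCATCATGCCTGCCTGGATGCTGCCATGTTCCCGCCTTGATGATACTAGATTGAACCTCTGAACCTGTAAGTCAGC

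Neither window held the heat shock element pair GAANNTTC, and each held the RBPJ core TGGGAA 1 time, searched on both strands; the motifs do not contain each other. Of 31396 RefSeq promoter windows of the same length, 7.87% held the first motif and 25.3% the second. The GC content was 39.7% in the Gm40369 window and 45.3% in the Gm40468 window, against a median of 53% over all windows. A match or its absence describes these letters only.

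The heat-shocked lists had 1489 to 2521 autosomal peaks (median 1641.5), the IgG list 1524 and the input list 1971. The authors' Peak Score, written by their peak calling program, has no unit. It started at 50 to 50.1 in the 8 heat-shocked lists and at 50.02 in both background lists, and its median was 73.8 to 83.8 in the heat-shocked lists, 84.0 in IgG and 77.1 in input. The lists give no read totals, so how deeply each library was sequenced is not known. The 38 °C 30 min list stood apart with 2521 peaks. Without it, the other 7 lists gave 154 recurrent loci and 1822 loci of 1 to 3 lists. Some results below are also given without it. Counts by temperature and recovery, and most shares by number of lists, are given only with it.

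Most peaks of the heat-shocked lists lay where a background list also had a peak. The share of autosomal peaks that touched an IgG or input peak was 72.0% at 38 °C 15 min, 54.6% at 38 °C 30 min, 74.5% and 70.8% after 2 h and 4 h of recovery from 38 °C. It was 73.0% at 43 °C 15 min, 71.5% at 43 °C 30 min, and 70.8% and 70.9% after 2 h and 4 h of recovery. Of the IgG peaks, 69.4% touched an input peak, and of the input peaks, 53.2% touched an IgG peak. So 7 of the 8 heat-shocked lists overlapped the background pair in a larger share of their peaks than IgG overlapped input, and the 38 °C 30 min list fell between the values of the 2 background lists. That comparison is uneven, because the heat-shocked lists were set against a pair of lists and IgG against a single one. Against input alone the heat-shocked shares were 49.4% to 67.2% (median 64.6%), all below the 69.4% of IgG peaks. Against IgG alone they were 42.3% to 63.0% (median 59.3%).

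Loci that many heat-shocked lists held were mostly background loci. Of 1341 loci in 4 or more heat-shocked lists, 1160 were also held by IgG or input and 181 were not, which is 13.5% (11.7 to 15.4). The share at background was 11.5% for loci of 1 heat-shocked list, 32.4% for 2 lists, 47.4% for 3 and 63.8% for 4. It was 66.9% for 5 lists, 82.8% for 6, 90.6% for 7 and 99.4% for all 8, where 626 of 630 loci were held by IgG or input and 606 by both. Only 4 loci in all 8 heat-shocked lists were in neither background list. Without the 38 °C 30 min library, the share at background of the loci held by all of the remaining 7 lists was 98.2%.

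The input of spermatocytes, a library of another cell preparation that the classes did not use, gave a second reading of the same loci. Among loci in neither testicular background list, the share present in the spermatocyte input was 2.90% for loci of 1 heat-shocked list, 13.6% for 2, 22.0% for 3 and 25.3% for 4. It was 34.0% for 5 lists, 53.3% for 6, 66.7% for 7 and 100% (4 of 4, interval 39.8 to 100) for 8. The more heat-shocked lists held such a locus, the more often an input library that contributed nothing to the choice held it too. The median Peak Score of the highest-ranked peak at such loci also rose, from 56.5 for 1 list to 118 for 7 lists, and was 99.9 for 8. The untreated spermatocyte SPEN list likewise held more of the recurrent loci (39.8%) than of loci of 1 to 3 lists (6.38%). Whether score goes with presence in the input was not tested. With the spermatocyte input counted as a background list as well, 113 of the 181 recurrent loci were left.

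**Figure D1:**
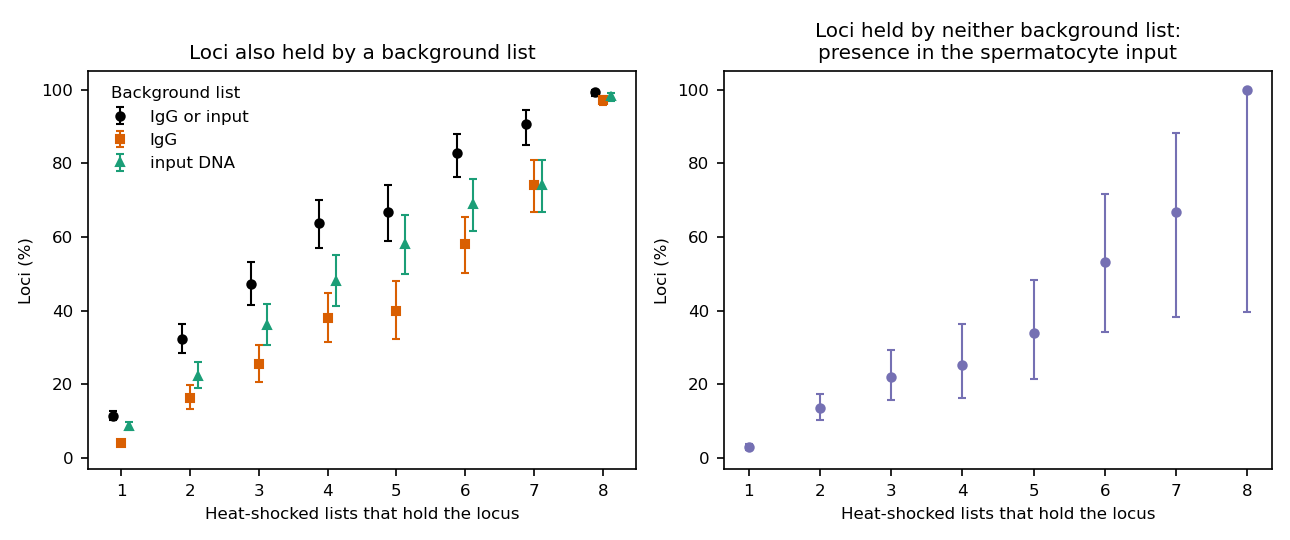
Left, percent of loci that IgG or input (circles), IgG (squares) or input DNA (triangles) also held, by the number of heat-shocked lists (1 to 8) that held the locus. Right, among loci held by neither testicular background list, the percent present in the spermatocyte input. Bars are exact 95% intervals. Both series climb with the number of lists, to 99.4% on the left and 100% (4 of 4 loci) on the right.

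The 181 recurrent loci were of middling score. Of them, 79 were held by 4 lists, 53 by 5, 30 by 6, 15 by 7 and 4 by 8. Each locus was represented by the peak that stood highest in the ranking of its own list. The Peak Score of that peak had a median of 90.1 (55.0 to 253) at recurrent loci, against 58.4 for loci of 1 to 3 heat-shocked lists, 172 for loci shared with background that 4 or more heat-shocked lists held, and 56.5 for loci of background only. Expressed as a percentile of the score within its own list (0 to 100), the median was 56.8 for recurrent loci, 23.1 for loci of 1 to 3 lists, 78.8 for the shared loci of 4 or more lists, and 19.6 for background only. Loci of more lists had more peaks to pick from, so these medians partly follow the number of lists that defined the classes. Within each heat-shocked list, the median percentile was 34.1 to 47.1 at recurrent loci and 18.8 to 26.7 at loci of 1 to 3 lists. At all shared loci it was 61.6 to 71.7. No recurrent locus passed the 87.3 percentile of its list. On either side of the threshold, the 79 loci in 4 lists had a median representative score of 83.9 and the 159 loci in 3 lists and no background list 77.0, so the boundary cuts through a continuous range.

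The 8 states held similar numbers of recurrent loci. The lists held 124 (38 °C 15 min), 86 (38 °C 30 min), 98 (38 °C, 2 h recovery) and 109 (38 °C, 4 h recovery) of the 181, and 108 (43 °C 15 min), 127 (43 °C 30 min), 116 (43 °C, 2 h recovery) and 130 (43 °C, 4 h recovery). The median score at these loci was 66.4 to 72.4 in the 8 lists. The longest list, 38 °C 30 min, held the fewest, and it also held 849 loci found in no other of the 10 lists, against 148 to 198 in the other 7. Counted over both temperatures, 79 recurrent loci were held by more 43 °C than 38 °C lists, 62 by equal numbers and 40 by more 38 °C lists. All 4 lists at 43 °C and none at 38 °C held 3 loci, and the reverse held for 1 locus. For recovery the balance was even, with 55 loci in more lists with recovery, 71 equal and 55 in more lists without. The number of recurrent loci held averaged 120 ± 10.1 in the 4 lists at 43 °C and 104 ± 16.2 in the 4 lists at 38 °C (SD over time states). The two-sided exact permutation test gave p = 0.143 for 4 lists against 4 (smallest possible p 0.0286), and p = 0.25 with the lists paired by time state, where 43 °C was higher in 3 of 4 pairs (smallest possible p 0.125). With recovery the mean was 113 ± 13.4 and without it 111 ± 18.8 (exact permutation p = 0.857). Adjusted over these 3 comparisons by Benjamini-Hochberg, the exact p-values were 0.375, 0.375 and 0.857, so none passed 0.05. The loci counted were chosen by membership in these same 8 lists, and the lists are different time states. The p-values therefore describe these lists, and no conclusion on temperature or recovery is drawn from them. The splits of single loci above were not tested.

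The 4 recurrent loci present in all 8 heat-shocked lists had low to moderate scores. The highest lay in intron 46 of 52 of Lyst (chr13:13754873-13755489, mm10), whose protein regulates lysosome traffic; Gng4 has the nearest annotated start. Its Peak Scores in the 4 lists at 38 °C were 50.3 (15 min), 110.0 (30 min), 192 (2 h recovery) and 88.0 (4 h recovery), and in the 4 lists at 43 °C they were 228 (15 min), 83.1 (30 min), 154 (2 h recovery) and 109 (4 h recovery). It was highest right after 15 min at 43 °C and barely above the lowest score of the list after 15 min at 38 °C, and IgG and input had no peak there. The locus beside Rn4.5s whose sequence is given above lies in an RMER12B long terminal repeat and scored 51.9 to 86.0 (median 74.5). An intergenic locus nearest to Tecrl (chr5:83397803-83398043), an enoyl-CoA reductase-like gene, scored 59.8 to 79.3 (median 73.6). The last lay in intron 1 of 11 of Rtkn (chr6:83140436-83140665) inside a PB1D10 SINE, and scored 53.5 to 114 (median 71.1). All 4 were present in the spermatocyte input and absent from the untreated internal SPEN list of testicular cells. Other unheated SPEN lists held some of them. The Lyst, Tecrl and Rtkn loci were in the untreated internal list of spermatocytes, and the Lyst locus was in the untreated N-terminal list too.

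The next 15 loci in the order of lists and score were held by 7 heat-shocked lists and the last by 6. In intron 6 of 10 of Adk (chr14:21312538-21313126), which encodes adenosine kinase, the score was 55.4 to 173 over 7 lists (median 121), highest at 38 °C 30 min, and the peak was missing at 43 °C 15 min. The locus before Pisd-ps1, a phosphatidylserine decarboxylase pseudogene (chr11:3122131-3122634), scored 61.9 to 151 (median 106). Intron 1 of 7 of Pbx4 (chr8:69843351-69843603), which encodes a homeodomain transcription factor, scored 51.6 to 123 (median 80.6). Scores reached 118 in intron 8 of 14 of Afm, which encodes the vitamin E carrier afamin, and 93.4 in intron 2 of 4 of the zinc finger gene Zfp980. In intron 1 of 11 of Wdfy1 (chr1:79750154-79750412), whose product is an endosomal protein, the 6 lists that held it scored 99.2 to 162.5 (median 107). The locus before Pisd-ps1 is intergenic and the others named in this group are intronic.

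Tug1 was the only gene among the first 20 loci whose locus was annotated as a promoter. Tug1 is a long non-coding RNA gene that mice need for normal sperm production. The locus (chr11:3647386-3647641, mm10) lay 41 bp from the start of 1 of its transcripts, inside the gene as RefSeq delimits it. It scored 79.9 at 38 °C 15 min, 72.8 at 38 °C 30 min, 63.5 after 2 h and 89.6 after 4 h of recovery from 38 °C, and 65.2 at 43 °C 15 min, 66.9 at 43 °C 30 min and 77.9 after 2 h of recovery. The list of 43 °C with 4 h recovery had no peak there, and neither did IgG, input, the spermatocyte input or the untreated internal list. The scores at 38 °C and 43 °C overlapped. In spermatocytes the locus was present in 3 of the 4 internal SPEN lists, the untreated one among them. It was in none of the 3 N-terminal SPEN lists of testicular cells.

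Of the others among the first 20, most lay in repeats. They were L1 loci near 2610005L07Rik, 6820431F20Rik (both annotated as Cdh11 pseudogenes on chromosome 8) and 2810429I04Rik, RLTR45-int loci near Olfr1459 and Cntn5, simple repeats inside the immunoglobulin heavy chain locus Igh and near Pisd-ps2, and a locus near 4930444G20Rik outside any annotated repeat. In all, 15 of the 20 were present in the spermatocyte input, 13 in at least 1 N-terminal SPEN list, and 2 in the untreated internal SPEN list (the loci near 4930444G20Rik and Pisd-ps2). The untreated internal list of spermatocytes and the untreated N-terminal list also held several of the 20. The 38 °C 30 min list lacked 9 of the 20.

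**Figure D2:**
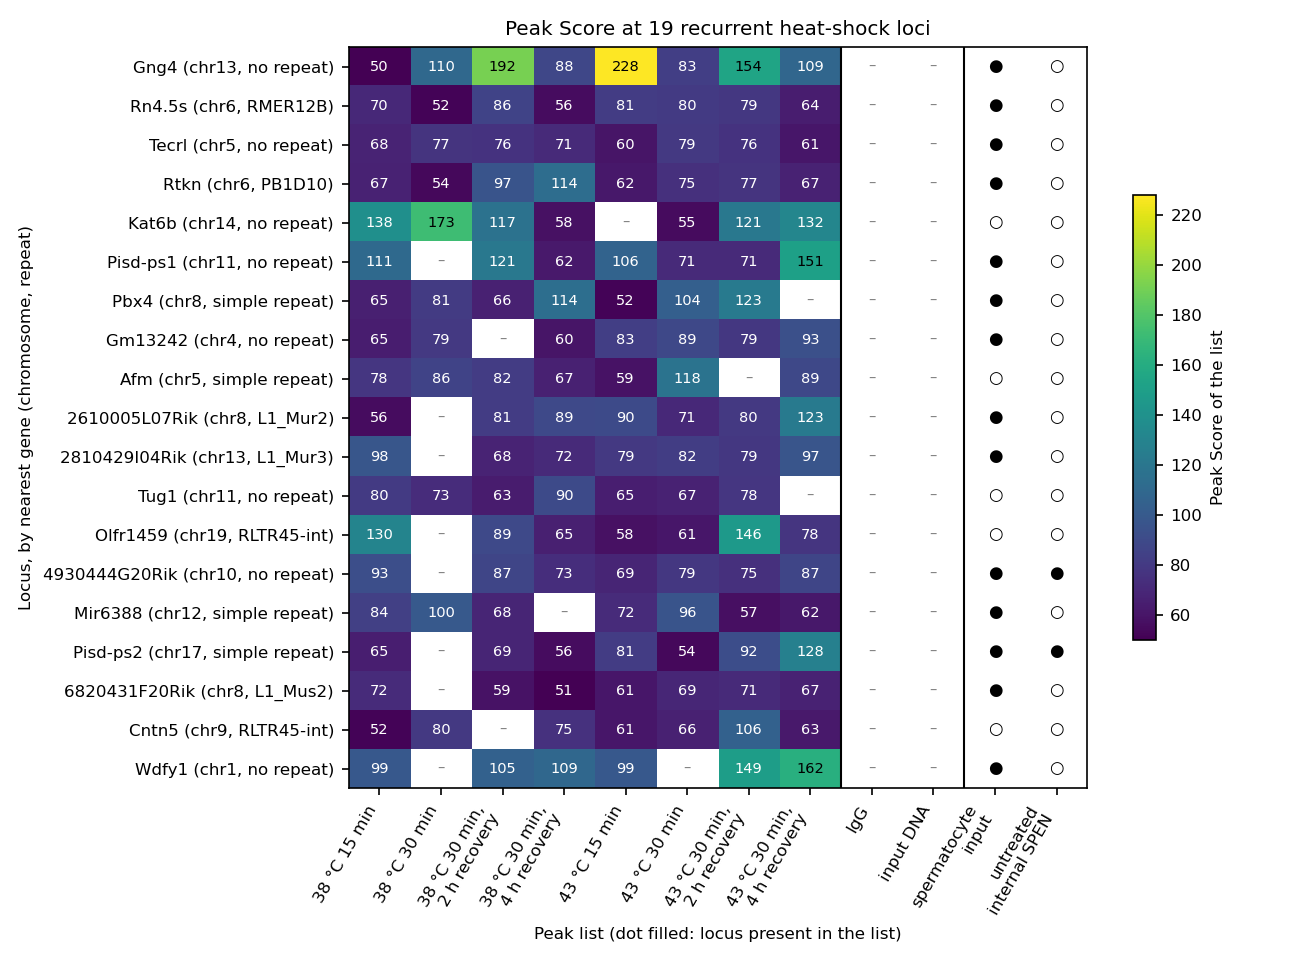
Peak Score of 19 of the 20 recurrent loci held by the most heat-shocked lists (rows, named by the nearest gene start, with chromosome and repeat) in the 8 heat-shocked lists, then IgG and input DNA; a dash means no peak. Filled dots mark presence in the spermatocyte input (14 of 19) and in the untreated internal SPEN list (2 of 19). Scores run from 50.3 to 228, and the rows labelled Gng4 and Kat6b are the introns of Lyst and Adk.

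Recurrent loci were crowded into few stretches of the genome. Stretches with 3 or more recurrent loci less than 1 Mb apart numbered 11 and held 59 of the 181 loci (32.6%, 25.8 to 39.9), while 15.2% of all 5151 loci lay in them. The stretches were marked out from the recurrent loci themselves after their positions were seen, so the contrast is a description. On chromosome 12 the stretch chr12:114930008-115998504 held 10 recurrent loci, all inside Igh, an array of variable gene segments. The stretch chr5:14907463-15663622 held 9 among the Speer genes, a family of spermatogenesis-associated glutamate-rich proteins in tandem copies. Chromosome 8 had 9 in chr8:69418667-69843603, from Zfp868 to Pbx4, and 8 in chr8:20017168-20675738. In the latter the nearest genes are Cdh11 pseudogenes and the predicted gene Gm21119. Zinc finger genes marked chr4:145679990-147122705 (Zfp980, Zfp600 and Rex2) with 4 loci.

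A pair of short stretches lay on chromosome 6. Abcg2, which encodes a drug efflux transporter, had 3 recurrent loci in 11.85 kb (chr6:58600057-58611906). They were held by 6, 5 and 4 heat-shocked lists, with best scores of 87.1, 95.2 and 81.6. Around Rn4.5s, 3 loci were held in chr6:47652660-47773257, and 1 of them (chr6:47685868-47686412, 6 lists, best score 141) was annotated as the Rn4.5s promoter. In the Abcg2 stretch 5 of 8 loci of any class were held by a background list, in the Rn4.5s stretch 10 of 26 and in the Igh stretch 75 of 194. Outside all 11 stretches 122 recurrent loci remained.

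Recurrent loci also lay close to background peaks that they did not touch. Of the 181, 28 (15.5%, 10.5 to 21.6) were within 500 bp of an IgG or input peak, against 6.26% (5.37 to 7.26) of the loci of 1 to 3 heat-shocked lists. Within 5 kb the shares were 39.8% (32.6 to 47.3) and 23.5% (21.9 to 25.2). Without the 38 °C 30 min library they were 14.9% and 7.57% within 500 bp, and 40.9% and 26.6% within 5 kb. Another locus of any class was within 5 kb of 52.5% of recurrent loci, 35.5% of loci of 1 to 3 lists, 42.7% of shared loci and 39.7% of loci of background only.

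Recurrent loci and loci of background only were alike in gene annotation. A repeat was annotated at 61.3% of recurrent loci and at 58.0% of loci of background only, and 68.0% and 70.1% were intergenic. Introns held 29.3% and 26.6%, promoters 1.10% (2 loci) and 1.55% (9 loci). The differences in these 4 shares were within the counting intervals. The representative peak was over 100 kb from any annotated start at 25.4% (19.2 to 32.4) of recurrent loci, against 35.4% (31.5 to 39.5) of loci of background only and 35.7% of all loci.

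IAP elements, which are among the youngest and most active endogenous retroviruses of the mouse, were most frequent at loci of background only. They were annotated at 1 of 181 recurrent loci (0.552%, 0.0140 to 3.04), at 109 of 2635 loci of 1 to 3 heat-shocked lists (4.14%, 3.41 to 4.97), and at 50 of 579 loci of background only (8.64%, 6.48 to 11.2). Over all 5151 loci the share was 3.55%. Without the 38 °C 30 min library the 3 shares were 0.649%, 3.84% and 7.85%. At shared loci of 4 or more heat-shocked lists, with all 8 lists used, IAP was at 8 of 1160 (0.690%, 0.298 to 1.35). The low share was therefore not particular to recurrent loci. The IAP loci of background only were 21 of the 196 held by IgG (10.7%) and 29 of the 397 held by input (7.30%), so both lists carried them. The internal part IAPEz-int made up 35 of the 50.

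The order was reversed for another retroviral sequence. RLTR45-int, the internal part of an ERVK element, was the most frequent repeat name among recurrent loci, with 9 of 181 (4.97%, 2.30 to 9.23), and it was picked out after the values were seen. Its share was 0.797% (0.494 to 1.22) of loci of 1 to 3 lists, 0.690% (0.298 to 1.35) of shared loci of 4 or more lists and 0.691% (0.189 to 1.76) of loci of background only. The 2 held by 7 lists lay near Olfr1459 (chr19:13140687-13140944), where scores were 58.2 to 146, and, nearest to Cntn5 (chr9:11951242-11951477), where scores were 51.9 to 106. Of the others, 2 lay near Clec2i on chromosome 6, held by 5 and 4 lists. None of the 9 was present in the spermatocyte input. How reads that match several copies of an element were treated is not given in the sources used here, so the copy behind each such locus is uncertain, as it is for Rn4.5s, Pisd-ps1 and the tandem gene families.

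The young LINE-1 subfamily L1Md_T made up a smaller share of recurrent loci than of the loci of 1 to 3 lists. Its intervals overlapped once the 38 °C 30 min library was left out, and those for LINE repeats as a whole overlapped with it. LINE repeats made up 21.5% (15.8 to 28.3) of recurrent loci, 28.8% (27.1 to 30.6) of loci of 1 to 3 lists and 22.6% (19.3 to 26.3) of loci of background only. For L1Md_T, which is still mobile, the shares were 3.31% (1.23 to 7.08), 9.41% (8.32 to 10.6) and 5.87% (4.10 to 8.11). Without the 38 °C 30 min library they were 3.90% (1.44 to 8.29), 7.85% (6.65 to 9.18) and 5.38% (3.81 to 7.34), and the first and second intervals overlapped. At shared loci of 4 or more heat-shocked lists, with all 8 lists used, L1Md_T was at 3.71% (2.70 to 4.96), near the recurrent share. The L1Md_F and L1Md_Gf subfamilies were at 6.08%, 5.05% and 2.76%, and older L1 elements at 10.5% of recurrent loci and 10.0% of loci of background only. The 38 °C 30 min library held the lowest share of LINE loci among its recurrent loci, 14.0%, against a median of 22.1% over the 8 libraries.

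Telomere-like repeats and ribosomal sequence were most frequent at the shared loci. Telomere-like repeats, TTAGGG or CCCTAA in tandem, made up 2 of 181 recurrent loci (1.10%), none of 579 loci of background only, 141 of 1160 shared loci of 4 or more lists (12.2%, 10.3 to 14.2) and 123 of 606 loci in all 10 lists (20.3%, 17.2 to 23.7). LSU-rRNA_Hsa, fragments annotated as ribosomal RNA, was at 0 of 181 recurrent loci, which allows a share of up to 2.02%, at 2 of 579 loci of background only and at 55 of the 606 (9.08%). Simple repeats of all kinds made up 9.94% of recurrent loci, 2.76% of loci of background only 29.2% of the loci in all 10 lists and 10.3% of all loci, so the recurrent share was near the overall one.

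**Figure D3:**
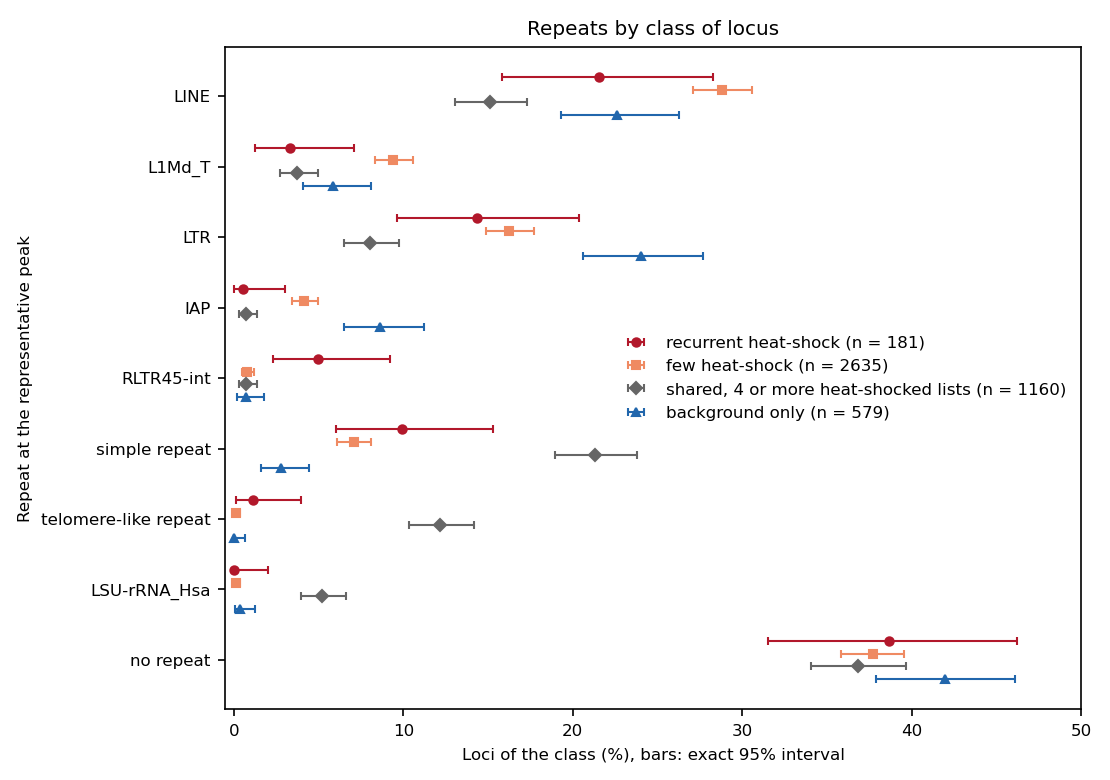
Percent of loci whose representative peak was annotated with each repeat, for recurrent heat-shock loci (red circles), loci of 1 to 3 heat-shocked lists (orange squares), shared loci of 4 or more heat-shocked lists (grey diamonds) and loci of background only (blue triangles); bars are exact 95% intervals. IAP is at 0.552% of recurrent loci, 0.690% of shared loci of 4 or more lists and 8.64% of loci of background only. RLTR45-int is at 4.97% of recurrent loci and 0.691% of loci of background only. Telomere-like repeats are at 1.10% of recurrent loci against 12.2% of shared loci of 4 or more lists.

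Recurrent loci were near gene starts about as often as the other loci. The representative peak was within 5 kb of an annotated start at 7.18% (3.88 to 11.97) of recurrent loci, 9.33% (7.08 to 11.99) of loci of background only and 8.43% of all loci. Within 5 kb of an annotated start there were 12 genes, which were Tug1, Rn4.5s (with 2 loci), Pisd-ps1, Rtkn, Abcg2, Plekhg1, Pgm5, Fbxl18, Pdcd2, Slc14a1, 1110032F04Rik and the vomeronasal receptor pseudogene Vmn2r-ps159. The Plekhg1 locus (chr10:3740503-3740697, 5 lists, best score 146) lay 195 bp into the gene on a CpG island. The Pgm5 locus (chr19:24858012-24858367, 5 lists, best score 69.7) lay in intron 1 of 10 of this phosphoglucomutase-related gene. Of 183 genes in 11 lists (heat shock proteins and factors, SPEN with its NCoR and HDAC3 partners, Notch pathway, meiotic, spermatid and somatic cell genes among them), 182 were found in RefSeq and 1, Rn4.5s, had a recurrent locus within 5 kb of its start. No heat shock, Notch pathway or SPEN corepressor gene of these lists had one, and none had a locus of any other class that near either. Rn4.5s had loci of every other class that near too, background only included. Few genes of any kind had a locus within 5 kb of a start. Besides the 12 genes at recurrent loci, there were 189 at loci of fewer heat-shocked lists without background. Shared loci had 127 such genes and loci of background only 49. No share over all genes was computed, so the absence does not set these genes apart from others. The 8 genes of the X inactivation locus could not have one, because the sex chromosomes were left out.

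The rule did not use the other 9 libraries. The recurrent loci were present in the spermatocyte input at 37.6% (30.5 to 45.1), against 5.58% (4.73 to 6.52) of loci of 1 to 3 lists and 3.45% (2.12 to 5.28) of loci of background only. Of all loci, 22.9% were present there. In the 3 N-terminal SPEN lists of testicular cells the share of recurrent loci was 25.4% (untreated), 33.7% (38 °C 15 min) and 33.7% (38 °C with 2 h recovery). In the same order of lists, the shares were 3.11%, 3.63% and 6.91% of loci of background only and 20.7%, 20.8% and 24.9% of all loci. The intervals of the 3 N-terminal shares of recurrent loci overlapped, the untreated one included. In the spermatocyte lists with the internal antibody the share of recurrent loci was 39.8% untreated, 24.3% after 43 °C 30 min, 28.2% with 2 h and 25.4% with 4 h of recovery. These stood against 24.4%, 24.2%, 23.1% and 35.2% of all loci in the same order of lists. The list with 4 h of recovery has 9101 autosomal peaks and held 20.4% (18.9 to 22.0) of loci of 1 to 3 lists and 18.8% (15.7 to 22.3) of loci of background only.

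The untreated internal SPEN list of testicular cells, the unheated counterpart with the same antibody, held 32.0% (25.3 to 39.4) of recurrent loci, 30.6% (28.9 to 32.4) of loci of 1 to 3 lists and 27.6% (24.0 to 31.5) of loci of background only. That list has 27197 autosomal peaks, far more than any of the 10 lists, and these 3 shares differed by less than their intervals. Over all loci, which count the shared loci too, the share was 43.0% (41.6 to 44.4), above these 3. The shared loci of 4 or more lists were present in every one of the 9 lists at 63.0% to 75.9%, above the recurrent loci throughout.

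**Figure D4:**
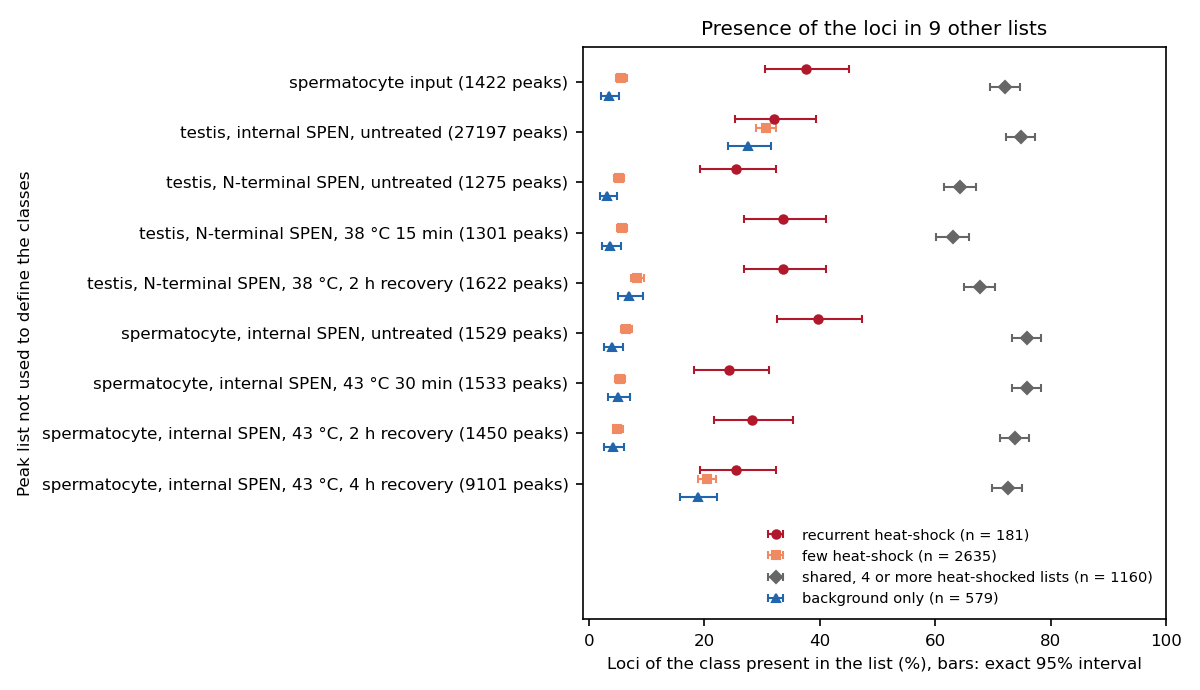
Percent of loci of each class (recurrent heat-shock, red circles; 1 to 3 heat-shocked lists, orange squares; shared with 4 or more heat-shocked lists, grey diamonds; background only, blue triangles) present in 9 lists that did not define the classes, each with its number of autosomal peaks; bars are exact 95% intervals. Recurrent loci lie at 24.3% to 39.8% in all 9 lists, the spermatocyte input included at 37.6%, and shared loci lie above them in each.

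Of the 181 recurrent loci, 24 (13.3%, 8.68 to 19.1) were in none of the 9 other lists. By overlap of 1 bp, they appeared in this study with the internal antibody in heated testicular cells only. In none of the 9 were 53.2% of loci of 1 to 3 lists, 60.3% of loci of background only and 36.8% of all loci. The 24 were among the least widely held, with 15 in 4 lists, 8 in 5 and 1 in 6. By annotation, 18 were intergenic and 6 intronic, and 8 were in LINE, 5 in LTR and 6 in no repeat. These 24 were singled out after their values were seen, and among the 6 intronic ones a locus in intron 1 of 2 of Xkr4 scored at most 89.5, an intron 1 of 26 locus assigned to Scn1a, which encodes a sodium channel, at most 68.8, and the Pgm5 locus above at most 69.7. The single locus held by 6 lists, an RLTR45-int copy nearest to the desmosomal gene Dsc3, was in all 4 lists at 38 °C and 2 of 4 at 43 °C, with a best score of 79.3. Of the RLTR45-int loci, 4 of 9 were among the 24. A further locus of the 24, near Gm10033 (chr8:69418667-69418820), had a best score of 55.0, close to the lowest scores of the lists. It lay just before a locus of background only that IgG and input both held (chr8:69418934-69419105).

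Loci of background only were mostly weak and mostly particular to 1 list. Of the 579, 14 were in both background lists, 182 in IgG alone and 383 in input alone. They made up 13.6% of the 1441 IgG loci and 21.0% of the 1891 input loci. Their median score percentile was 16.4 within the IgG list and 21.2 within the input list. The 14 in both lists were led by a locus in Myo3a, an unconventional myosin gene, with Gad2 as the nearest start (chr2:22588191-22588302). It scored 77.7 in IgG and 129 in input, with no peak in any heat-shocked list. A locus nearest to LOC100861615 (chr14:6084084-6084260) scored 96.8 in IgG and 60.1 in input. The next lay in an L1Md_F2 element near 1700011B04Rik (70.4 and 74.9), a B1_Mus1 SINE in Gm13212 (73.2 and 62.3), and an L1Md_T element in 6530403H02Rik (81.3 and 56.0), each given as IgG and then input. The other 5 of the first 10, near Gm5592, Tdpoz4, Gm10033, Zfp369 and 2410141K09Rik, scored 52.2 to 84.5. The locus near Gm10033 (chr8:69418934-69419105) lay within 1 of the stretches that also held recurrent loci.

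At the 606 loci held by all 10 lists, the heat-shocked and background lists ordered the loci alike. Spearman's rank correlation between Peak Scores over these loci was 0.83 to 0.92 among the 28 pairs of heat-shocked lists (median 0.89), 0.88 to 0.90 between a heat-shocked list and IgG (median 0.89), 0.85 to 0.89 between a heat-shocked list and input (median 0.87), and 0.88 between IgG and input. These are descriptions over loci that all lists share, and the loci are not independent. Scores were turned into ranks from 0 to 100 within each list over the same 606 loci. The median over loci of the heat-shocked minus the background rank was 0.165, and 90% of the differences lay between -14.7 and 14.6. A difference of more than 10 ranks in either direction occurred at 134 loci (22.1%).

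All 8 heat-shocked ranks lay above both background ranks at 15 loci (2.48% of the 606), and all 8 below both at 20 (3.3%). Without the 38 °C 30 min library, 29 loci lay above and 28 below. How many loci would lie so if all 10 lists were alike was not computed. The counts therefore do not show that heat-shocked lists differ from background, and the loci named were picked by their ranks. The locus furthest above lay in intron 2 of 6 of Slain1 (chr14:103677272-103677621), which encodes a protein of growing microtubule ends. Its ranks were 24.5 to 38.7 in the heat-shocked lists (median 30.0), 6.78 in IgG and 14.5 in input, and its scores were 120 to 161 in the heat-shocked lists, 77.3 in IgG and 99.9 in input. A locus nearest to Gm5114 (chr7:39197670-39198040) ranked 11.6 to 30.7 in the heat-shocked lists, 0 in IgG, where it was the lowest of all, and 2.81 in input. Others of the first 8 were near or in Bbox1 (carnitine synthesis), Mylip (a ubiquitin ligase for the LDL receptor), Adgrd1, Ptger3 and Ddx18. The gap between the lowest heat-shocked and the highest background rank was at most 9.92.

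The locus furthest below background, picked in the same way, lay in intron 5 of 7 of Pisd-ps2 (chr17:3077338-3078107). Its ranks were 1.98 to 16.0 in the heat-shocked lists (median 4.55), 35.5 in IgG and 30.7 in input, and its scores were 62.3 to 119 in the heat-shocked lists, 149 in IgG and 143 in input. A locus inside Snhg14, the host transcript of the imprinted Snord116 small nucleolar RNAs (chr7:59862324-59862822), ranked 0.661 to 14.7 in the heat-shocked lists, 21.3 in IgG and 31.6 in input. Ribosomal fragments named LSU-rRNA_Hsa recurred here. The one in intron 1 of 7 of Rsph3a, a radial spoke gene, ranked 10.6 to 31.1 in the heat-shocked lists, 38.7 in IgG and 49.6 in input. The one near Atp5g1, an ATP synthase subunit gene, ranked 4.79 to 34.7 in the heat-shocked lists, 40.0 in IgG and 48.9 in input. In all, ribosomal repeats were at 0 of the 15 loci above, 4 of the 20 loci below and 60 of the 606. Telomere-like repeats were at 3 of the 15, 3 of the 20 and 123 of the 606, so they appeared on both sides.

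**Figure D5:**
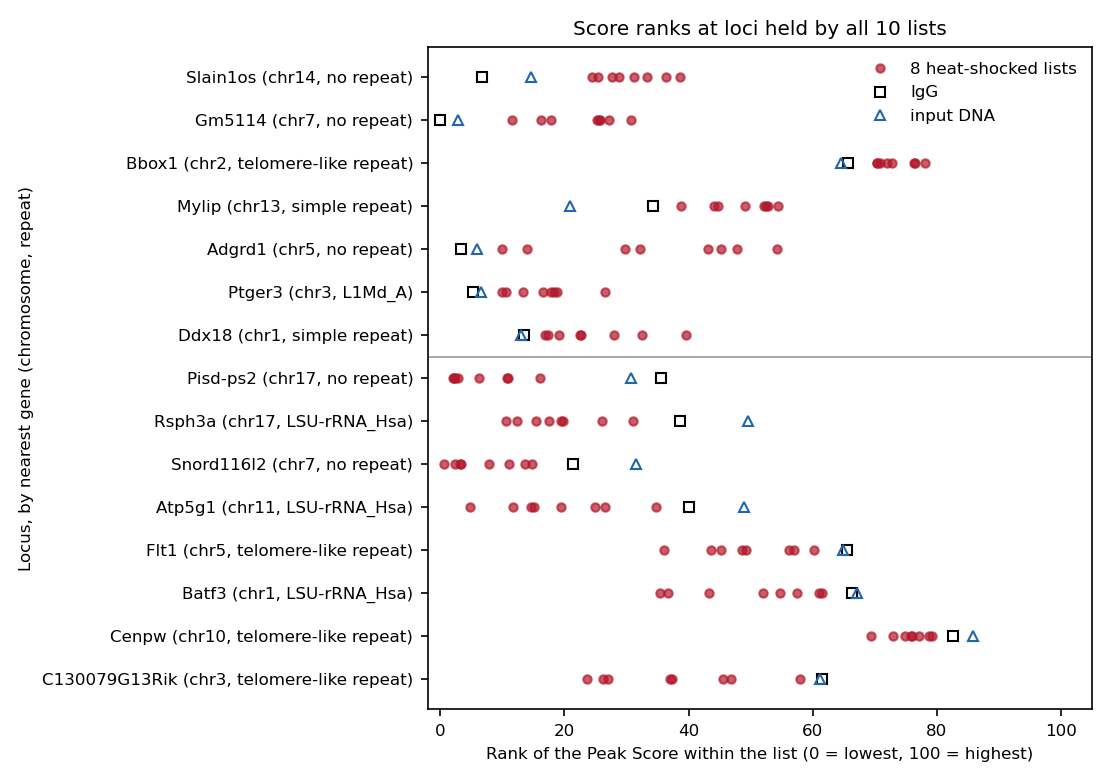
Rank of the Peak Score within each list (0 lowest, 100 highest, over the 606 loci in all 10 lists) at 7 of the 8 loci with the widest gap above background (upper rows) and the 8 with the widest gap below (lower rows). Red circles are the 8 heat-shocked lists, the black square is IgG and the blue triangle is input DNA; the upper 7 rows show all circles to the right of both open symbols and the lower 8 rows all circles to the left, by choice of the rows.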

How the data were processed

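SPEN binding in mouse testicular cells was measured by ChIP-seq. Bowtie2, SAMtools, HOMER and the mm10 build are named in the submitters' processing notes; versions are not given in the sources used here. Per the file headers each library has its own peak list, with peaks named after MACS. Its version, threshold and control are not given in the sources used here. Peak Score is the authors' deposited score, and it was used to describe and rank peaks within a list. Annotation, repeats and distances to transcription start sites are the authors' HOMER values. The 10 lists used here share a folder name in their headers, and the highest share of identical intervals between lists was 0.191% of the shorter list.

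Peaks of chromosomes 1 to 19 were merged into loci where they shared 1 bp, and each locus was described by the peak with the highest score percentile in its own list. Shares carry exact Clopper-Pearson 95% intervals. Each condition had 1 library, so loci were not tested. The number of recurrent loci held was compared between temperatures and between lists with and without recovery by exact permutation over the 8 lists, added with the values known, and Dixon's ratio was used to look for lists far from the others. Ranks at loci of all 10 lists run from 0 to 100. The class assignment was tested on simulated lists. Python 3.11.15, pandas 2.3.3, SciPy 1.17.1 and Matplotlib 3.10.9 were used. Genes and promoter windows came from RefSeq on GRCm38.p6, the assembly of mm10.

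Named loci were the first 20 recurrent loci ordered by number of lists and then by median score percentile, the first 10 loci of background only, the 8 loci with the widest rank gap in each direction, and genes of 11 lists with a recurrent locus within 5 kb of a start. Some loci under this rule are not reported here. Loci named outside this rule are said to be chosen after their values were seen, or lie within 5 kb of a start or in the stretches. The members, lists and rules were chosen with earlier results of these data known. Alternatives changed the merging distance, the number of lists, the score minimum, list length, background lists, chromosomes and libraries.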

Additional observations from a re-analysis of the deposited data

Results flagged for a closer look

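The 8 heat-shocked lists were screened for values far from the others with Dixon's ratio, and chance alone flags about 1 in 20 groups. The 8 are different states of the cells and not replicates. The 38 °C 30 min list was the extreme one in each of the 4 flagged measures. It had 2521 autosomal peaks, against 1489 to 1770 in the other 7 lists. Of its peaks, 54.6% lay at background, against 70.8% to 74.5%. It had 849 loci found in no other of the 10 lists, against 148 to 198. Of the recurrent loci it held, 14.0% lay in LINE repeats, the lowest share of the 8 lists. Whether depth or the state of the cells goes with these values was not tested.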

How the results depend on the processing

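Each state had 1 library and read depth is unknown, so replicate error was not measured. No paired analysis was possible by replicate, because each group has 1 library and the labels give no replicate numbers. Pairing 38 °C and 43 °C by time state was possible and is in the report. Counts of recurrent loci (181 in the report) moved with the definition: 340 with 3 or more lists, 102 with 5 or more, 90 with scores of at least 60 required of heat-shocked peaks alone, 364 against IgG alone, 285 against input alone, 113 with the spermatocyte input added, and 382 with X and Y, which held 201 of them. With the spermatocyte input and background peaks widened by 500 bp together, an alternative chosen after seeing the data, 87 were left. Loci of background only (579) numbered 304 with a minimum score of 60 in all lists and 196 against IgG alone. The share of loci in all heat-shocked lists at background (99.4%) stayed between 97.3% (IgG alone) and 100% (score minimum for heat-shocked lists, spermatocyte input added, or that input with widening); it was 98.3% for input alone and 99.8% with lists cut to the shortest. The pooled share of heat-shocked peaks at background (68.8%) was 56.7% for IgG alone, 62.2% for input alone, 65.1% with X and Y, 71.9% with widening, 72.5% with lists cut to the shortest, 73.7% with the spermatocyte input, 74.5% and 79.7% under the score minimum (all or heat-shocked lists), and 76.7% with input and widening together. Recurrent loci in the spermatocyte input (37.6%) were 30.3% with 3 lists, 47.1% with 5, 50.0% and 52.2% under the score minimum, 18.8% with X and Y, and 29.5% outside the dense stretches (chosen after seeing the data). Recurrent loci in the untreated internal list (32.0%) were 41.2% against IgG alone, 39.8% with the spermatocyte input added and 20.9% with X and Y. IAP at loci of background only (8.64%) was 5.26% with the score minimum in all lists. Loci ranked below background (20) numbered 63 when loci of both background lists and 4 or more heat-shocked lists were ranked; by peak width 7 were above and 8 below. Leaving out each library in turn gave 98.2% to 99.4% of loci in all remaining lists at background, 68.0% to 71.9% of peaks at background, and 15 to 29 loci ranked above. The causes of these shifts were not tested. Ranks against a single background list were not computed.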
